A study of Mus musculus with 8 samples.

Results

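The genes described here are 30 genes of the mouse nuclear pore complex, measured on one-colour microarrays in the neuroblastoma line N18TG2 and in a clone derived from it. They were chosen by name: every non-control probe whose RefSeq accession belongs to 1 of the 30 nucleoporin genes was taken, which gave 39 of 55681 probes. Of the 30 genes, 22 had 1 probe and 8 had 2 or 3, and a gene is represented by its brightest probe unless said otherwise. All 30 genes were well above background on all 8 arrays, so none was lost to the filter on dim probes.

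The nuclear pore complex is the channel through which proteins and RNA pass between nucleus and cytoplasm. Stacked rings of structural nucleoporins line the opening in the nuclear envelope, membrane proteins anchor them, and nucleoporins rich in phenylalanine-glycine repeats fill the channel and bind transport receptors as they pass. A basket of filaments faces the nucleus and further filaments face the cytoplasm, where exported messenger RNA is released. In dividing cells the complex is taken apart as the envelope breaks down in mitosis and is rebuilt on the chromatin of the daughter nuclei.

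N18TG2 is a mouse neuroblastoma line, and the 2/4 clone is a derivative that, by its label, expresses ChAT (choline acetyltransferase), which synthesises the transmitter acetylcholine. There were 2 arrays in each of 4 groups: the 2/4 clone with retinoic acid (RA), the 2/4 clone untreated, N18TG2 with RA and N18TG2 untreated. RA, a signal that drives neuronal differentiation, was used at 1 µM with serum lowered to 1%, whereas growth medium contained 10% serum and, for the clone, 200 µg/mL of the selection drug G418. The derivative is a single clone, so clonal history and G418 cannot be told apart from the introduced gene, and because neither the time in RA nor the medium of the untreated cells is given, serum may go with RA.

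Whether both arrays of a group stem from separate cultures is not stated, and if they do not, p-values measure only the spread between these samples. The extraction text names hippocampus, whereas the samples are a cell line: all 13 sympathoadrenal neuroblast markers were above background on every array. Of 10 hippocampal neuron markers, 4 to 6 were above background per array, always Camk2a, Grin1, Gria2 and Zbtb20, and Neurod6, Prox1 and Gad1 were on none. The Chat signal did not separate the lines, at 1.10 and -2.58 on the clone RA arrays and -3.73 and -2.71 on the untreated clone arrays, against -3.22 and -5.06 with RA and -2.63 and -4.57 untreated in N18TG2 (log2). Arrays correlated within groups at 0.983 to 0.987, with the pair of clone RA arrays at 0.963, and the share of probes above background was 71.7% on clone RA array 1 and 47.7% to 62.8% on the other 7. All 8 arrays shared 1 slide and scan, on which the clone held columns 2 and 4 and N18TG2 columns 1 and 3. Slide row 1 held N18TG2 with RA and the untreated clone, and row 2 the other groups. Position thus goes with the comparison in every contrast within 1 line or 1 treatment. The difference between the RA responses of the lines likewise sets row 2 against row 1.

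Levels below are log2 of the background-corrected intensity after each array's 75th percentile was set to 0. They are comparable between arrays for 1 gene but not between genes, since probes differ in brightness. A gene is said to have risen or fallen where limma gave a Benjamini-Hochberg adjusted p under 0.05 over all 26247 features tested (genes or unnamed transcripts), each fold being between 2 group means of 2 arrays, and ± marks the standard error of the fit. A difference or call under RA is the clone against N18TG2, both with RA. The difference between RA and untreated arrays of 1 line is given after the line differences.

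Under RA, 9 of the 30 nuclear pore genes were lower in the clone than in N18TG2 and 1 was higher, and the lower genes came from 5 of the 6 structural parts of the pore. The 9 genes make up 30% of the set, against 10.2% lower among all features and 11.8% lower among the 19130 features that were also above background on all 8 arrays. The 1 higher gene, Nup93, makes up 3.33%, against 12.9% higher among all features. The median log2 difference of the 30 genes was -0.76, against 0.11 over all features and -0.08 over the bright ones. Of the 30, 23 were negative (76.7%), against 45.7% of all features and 53.4% of the bright ones. The 10 calls became 3 without clone RA array 1 (Nup37, Nup160 and Aaas, all lower), and this 10% lower lay near the 7.81% of all features in the same fit. They became 6 without N18TG2 RA array 1 and 5 without N18TG2 RA array 2, with 16.7% of the pore genes lower in both fits, against 5.95% and 6.52% of all features. Counting both directions, the shares called in these 3 fits were 10%, 20% and 16.7% of the pore genes, against 17.1%, 15.8% and 14.6% of all features. In untreated cells, no pore gene was lower in the clone and Nup93 and Nup98 were higher, which is 6.67% of the set against a background of 6.14% higher and 3.70% lower.

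The median level of the 30 genes was 2.82 and 3.11 on the clone RA arrays and 3.42 and 3.68 on the untreated clone arrays, against 3.39 and 3.71 with RA and 3.63 and 3.43 untreated in N18TG2. The clone RA arrays were thus the lowest of the 8, and the other 3 groups overlapped. Over all features, the median was -0.76 and -0.96 on the clone RA arrays and -1.05 to -0.94 on the others, so clone RA array 1 also differed there. The pore genes' median minus that of all features was 3.57 and 4.08 on the clone RA arrays, against 4.33 to 4.72 on the others. In bulk RNA of this kind, fewer cells of a type and less RNA per cell cannot be told apart.

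**Figure D1:**
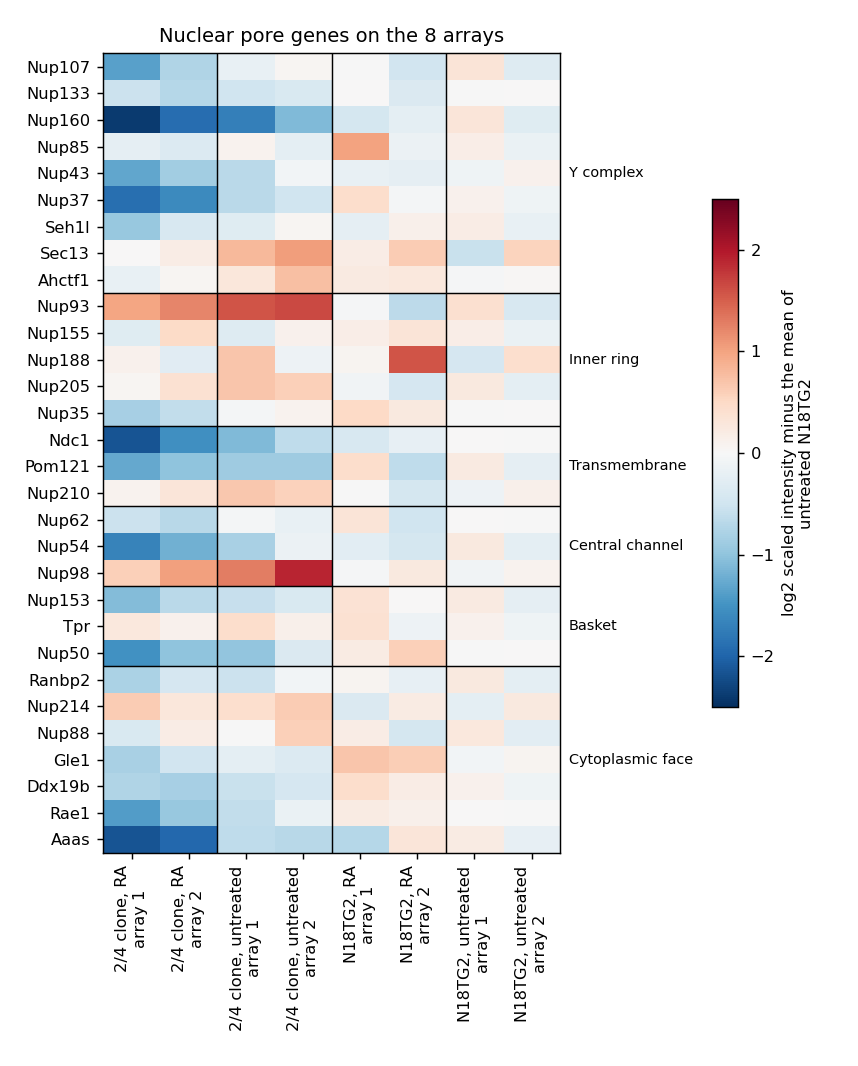
Level of each of the 30 nuclear pore genes (rows, grouped by place in the pore) on each of the 8 arrays (columns), as the log2 scaled intensity minus the mean of the 2 untreated N18TG2 arrays. The clone RA columns hold the deepest blue, in Nup160, Ndc1, Aaas and Nup37, while Nup93 and Nup98 are red in the clone columns.

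The 250 bases before the annotated start of 6 genes are shown, because they carry large line differences, described below array by array: Nup37, Nup160, Aaas and Nup50 were lower in the clone, Nup93 and Nup98 higher. They are RefSeq sequences of build GRCm38.p6, written 5′ to 3′ on the gene's strand: Nup37 from chr10:88146742-88146991 (plus strand), Nup160 from chr2:90676965-90677214 (plus), Aaas from chr15:102350760-102351009 (minus), Nup50 from chr15:84923178-84923427 (plus), Nup93 from chr8:94214314-94214563 (plus) and Nup98 from chr7:102210167-102210416 (minus). For Nup37, Nup93 and Nup98, 1 of 2 annotated windows is shown. Capitals mark matches, on either strand, to the CCAAT box (CCAAT), the cell cycle homology region (TTTGAA), an E2F site (GGCGGGAA), the NRF1 consensus, an ETS site (CCGGAAG) and the GC box (GGGCGG), of which the E2F site and the GC box can share letters.
Nup37: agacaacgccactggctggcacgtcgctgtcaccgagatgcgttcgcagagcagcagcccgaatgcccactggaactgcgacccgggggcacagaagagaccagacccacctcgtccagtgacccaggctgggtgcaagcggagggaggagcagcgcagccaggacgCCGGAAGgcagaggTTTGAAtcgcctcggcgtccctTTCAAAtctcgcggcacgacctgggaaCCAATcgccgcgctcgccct
Nup160: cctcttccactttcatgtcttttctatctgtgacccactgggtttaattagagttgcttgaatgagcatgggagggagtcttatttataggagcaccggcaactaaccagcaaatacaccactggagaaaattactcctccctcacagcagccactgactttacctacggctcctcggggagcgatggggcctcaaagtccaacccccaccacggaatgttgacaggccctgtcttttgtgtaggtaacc
Aaas: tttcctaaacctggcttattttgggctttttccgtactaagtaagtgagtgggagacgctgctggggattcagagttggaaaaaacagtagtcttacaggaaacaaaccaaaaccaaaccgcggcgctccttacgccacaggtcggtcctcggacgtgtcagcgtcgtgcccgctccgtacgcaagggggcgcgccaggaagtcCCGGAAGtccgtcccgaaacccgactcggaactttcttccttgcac
Nup50: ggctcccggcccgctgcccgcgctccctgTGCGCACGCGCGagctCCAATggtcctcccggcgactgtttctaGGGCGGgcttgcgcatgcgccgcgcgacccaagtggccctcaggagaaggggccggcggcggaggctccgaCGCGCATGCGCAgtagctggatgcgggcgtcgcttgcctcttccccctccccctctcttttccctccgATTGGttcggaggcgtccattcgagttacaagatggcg
Nup93: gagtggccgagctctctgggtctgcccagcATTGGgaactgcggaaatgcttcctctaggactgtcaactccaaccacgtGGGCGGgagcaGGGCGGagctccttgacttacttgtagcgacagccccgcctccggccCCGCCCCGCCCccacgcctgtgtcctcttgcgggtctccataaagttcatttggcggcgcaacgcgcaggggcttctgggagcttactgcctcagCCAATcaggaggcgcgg
Nup98: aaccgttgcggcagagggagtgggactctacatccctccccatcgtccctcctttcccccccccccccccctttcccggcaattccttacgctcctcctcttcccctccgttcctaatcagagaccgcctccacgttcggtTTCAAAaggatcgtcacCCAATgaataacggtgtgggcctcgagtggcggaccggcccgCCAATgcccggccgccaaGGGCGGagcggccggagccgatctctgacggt
The Nup50 window holds 2 NRF1 matches, the Nup37 window 2 cell cycle homology matches beside an ETS and a CCAAT match, and the Nup160 window none of the 6 motifs.

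Of the 30 genes, 26 had a promoter entry. The NRF1 consensus stood in 2 of the 26 (Nup50 and Nup62), or 7.69%, against 1.12% of the 27025 mouse genes with an entry of the same length. The ETS letters stood in 6 of 26, or 23.1% against 7.83%, and the GC box in 15 of 26, or 57.7% against 35.4%. The cell cycle homology region was found in 7 of 26 (26.9% against 18.3%), the CCAAT box in 10 (38.5% against 37.5%) and the E2F letters in 1 (3.85% against 2.13%). The genes with an entry were split by their call on average over treatments, described below, into 10 lower in the clone, 2 higher and 14 not called. In that order, the cell cycle homology region was present in 4, 1 and 2, the GC box in 5, 2 and 8. The CCAAT box was present in 3, 2 and 5, and the ETS letters in 2, 0 and 4. The NRF1 consensus was present in 1, 0 and 1, and the E2F letters in 0, 0 and 1. These are matches of letters in a window, and no binding was measured. The 27025 genes were not limited to those above background on these arrays, as the pore genes were, so the shares are not matched for expression.

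The Y complex, the outer scaffold ring that coats both faces of the pore, had 9 members. Under RA the log2 difference was negative for all 9, against 45.7% of all features, with a median of -0.71. Nup37 and Nup160 passed the test, both lower, which is 22.2% of the 9, against 10.2% of all features. Nup37, a small propeller-shaped subunit of the Y complex, stood at 2.79 and 3.09 on the clone RA arrays and 4.01 and 4.18 on the untreated clone arrays, against 5.12 and 4.62 with RA and 4.79 and 4.57 untreated in N18TG2. Every clone array lay below every N18TG2 array, and the clone RA arrays lay lowest. Nup37 was 3.81-fold lower in the clone under RA (log2 -1.93 ± 0.30, adjusted p = 0.00474), while the untreated difference was -0.58 ± 0.30 (adjusted p = 0.293).

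Nup160, a long arm of the Y, stood at 0.57 and 1.04 on the clone RA arrays and 1.24 and 1.85 on the untreated clone arrays, against 2.52 and 2.70 with RA and 3.25 and 2.65 untreated in N18TG2. Again the clone arrays all lay below the N18TG2 arrays, in both treatments. Nup160 was 3.49-fold lower in the clone under RA (log2 -1.80 ± 0.36, adjusted p = 0.0131), and in untreated cells the difference was -1.41 ± 0.36, just outside the threshold (adjusted p = 0.0561). Nup133, which carries the foot of the Y that touches the membrane, also lay lower on every clone array (4.34 to 4.68, against 4.70 to 5.07 in N18TG2), but by a small margin (average log2 difference -0.44 ± 0.19, adjusted p = 0.127).

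The other Y complex genes passed no test under RA on their brightest probes, but the second Seh1l probe did, below. Their log2 differences were -0.88 for Nup43, -0.80 for Nup107, -0.71 for Nup85, -0.61 for Seh1l, -0.32 for Ahctf1 and -0.32 for Sec13, with adjusted p between 0.0908 and 0.614. Ahctf1 encodes ELYS, which seats the Y complex on chromatin at the end of mitosis, and Sec13 is shared with the COPII coat of secretory vesicles. For Ahctf1 and Sec13 the untreated difference had the other sign, at 0.52 for Ahctf1 and 0.92 for Sec13, without passing the test (adjusted p = 0.325 and 0.230). Leaving out N18TG2 RA array 2 ended the call of Nup160 under RA (adjusted p = 0.0654), whereas Nup37 kept its call without each of the 8 arrays in turn.

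The inner ring, which lines the pore at the level of the membrane, held genes that differed in opposite directions. Nup93, the linker that holds the inner ring together, stood at 5.96 and 6.20 on the clone RA arrays and 6.54 and 6.62 on the untreated clone arrays, against 4.94 and 4.32 with RA and 5.37 and 4.58 untreated in N18TG2. All 4 clone arrays lay above all 4 N18TG2 arrays. Nup93 was 2.74-fold higher in the clone under RA (log2 1.45 ± 0.37, adjusted p = 0.0309) and 3.04-fold higher untreated (log2 1.60 ± 0.37, adjusted p = 0.0386). It was the one pore gene called in both treatments.

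Nup35, a membrane-binding subunit of the same ring, stood at 3.27 and 3.49 on the clone RA arrays and 4.06 and 4.20 on the untreated clone arrays, against 4.61 and 4.36 with RA and 4.10 and 4.12 untreated in N18TG2. The lines overlapped when untreated and were apart under RA. It was 2.15-fold lower in the clone under RA (log2 -1.10 ± 0.26, adjusted p = 0.0247), with an untreated difference of 0.02 ± 0.26 (adjusted p = 0.972). Of the large scaffold proteins, Nup205 had differences of 0.47 under RA and 0.65 untreated, Nup155 had -0.15 and -0.11, and Nup188 had -0.90 and 0.28, none past the threshold. The Nup93 call under RA was lost in 5 of the 8 fits that left out 1 array (all but those without N18TG2 RA array 1 or either untreated N18TG2 array; adjusted p up to 0.130), and the Nup35 call in 6 (all but those without clone RA array 2 or N18TG2 RA array 2; adjusted p up to 0.104).

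Of the 3 transmembrane nucleoporins, Ndc1 was lower in the clone than in N18TG2 with RA (33.3%, against 10.2% of all features). Ndc1, a membrane anchor of the pore, stood at -0.19 and 0.44 on the clone RA arrays and 0.86 and 1.33 on the untreated clone arrays, against 1.55 and 1.75 with RA and 1.98 and 1.95 untreated in N18TG2. Every clone array lay below every N18TG2 array. Ndc1 was 2.89-fold lower in the clone under RA (log2 -1.53 ± 0.33, adjusted p = 0.0165), and the untreated difference was -0.87 ± 0.33 (adjusted p = 0.162).

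Pom121, an anchor that acts early in pore assembly, stood at 4.76 and 5.05 on the clone RA arrays and 5.17 and 5.17 on the untreated clone arrays, against 6.50 and 5.42 with RA and 6.28 and 5.83 untreated in N18TG2. The lines did not overlap, but the N18TG2 RA arrays were more than 1 log2 unit apart. Pom121 differed by -1.05 ± 0.40 under RA (adjusted p = 0.106) and -0.88 ± 0.40 untreated (adjusted p = 0.245). Nup210, a glycoprotein of the pore membrane, had differences of 0.41 and 0.62 in the same order, with adjusted p = 0.339 and 0.244. The Ndc1 call under RA was lost without clone RA array 1 (adjusted p = 0.0692), N18TG2 RA array 1 (0.0515) or N18TG2 RA array 2 (0.0736).

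In the central channel, Nup98 was the gene that differed, and in untreated cells. Nup98, whose repeats form much of the permeability barrier and whose precursor also yields the Y complex protein Nup96, stood at 0.35 and 0.78 on the clone RA arrays and 1.05 and 1.67 on the untreated clone arrays, against -0.27 and 0.01 with RA and -0.33 and -0.14 untreated in N18TG2. Every clone array lay above every N18TG2 array, with the untreated clone highest. Nup98 was 3.03-fold higher in the untreated clone (log2 1.60 ± 0.33, adjusted p = 0.0261), and under RA the difference was 0.70 ± 0.33 (adjusted p = 0.175).

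Nup54 and Nup62, repeat proteins of the channel's core, passed no test. Nup54 stood at 2.69 and 3.15 on the clone RA arrays, against 4.10 and 3.92 on the N18TG2 RA arrays, without overlap, and differed by -1.09 ± 0.35 (adjusted p = 0.0678). Nup62 differed by -0.54 ± 0.33 (adjusted p = 0.285). Leaving out either untreated array of either line ended the untreated calls of both Nup93 and Nup98: with any 1 of these 4 arrays removed, 0 pore genes were called by limma, against 2.99% to 4.18% of all features (adjusted p from 0.0592 to 0.203 for these genes).

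In the nuclear basket, 1 gene of 3 was lower in the clone than in N18TG2 with RA (33.3%, against 10.2% of all features). Nup50, a mobile basket protein that helps release import cargo, stood at 1.41 and 1.91 on the clone RA arrays and 1.93 and 2.57 on the untreated clone arrays, against 3.13 and 3.51 with RA and 2.90 and 2.94 untreated in N18TG2. All clone arrays lay below all N18TG2 arrays. Nup50 was 3.17-fold lower in the clone under RA (log2 -1.66 ± 0.34, adjusted p = 0.0144), and the untreated difference was -0.67 ± 0.34 (adjusted p = 0.291).

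Nup153, which anchors the basket to the nuclear ring, stood at 1.81 and 2.21 on the clone RA arrays and 2.31 and 2.50 on the untreated clone arrays, against 3.24 and 2.89 with RA and 3.12 and 2.66 untreated in N18TG2. Its arrays did not overlap between lines, and its difference under RA was -1.05 ± 0.31, at the edge of the threshold (adjusted p = 0.0503). Tpr, the protein of the basket filaments, differed by 0.06 ± 0.30 under RA and 0.28 ± 0.30 untreated (95% intervals -0.65 to 0.77 and -0.43 to 0.99), but its second probe gave other values, below. The Nup50 call under RA was lost without clone RA array 1 (adjusted p = 0.0565) or N18TG2 RA array 2 (0.0710).

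On the cytoplasmic face, 4 of 7 genes were lower in the clone than in N18TG2 with RA. That is 57.1%, against 10.2% of all features and 30% of the 30 pore genes. The median log2 difference of the 7 was -1.09, against 0.11 over all features. Aaas, which encodes ALADIN, a propeller protein tethered to the pore by Ndc1 and mutated in Allgrove syndrome, stood at 1.85 and 2.04 on the clone RA arrays and 3.36 and 3.30 on the untreated clone arrays, against 3.29 and 4.30 with RA and 4.21 and 3.79 untreated in N18TG2. The clone RA arrays stood more than 1 log2 unit below all others, while the untreated clone overlapped N18TG2. Aaas was 3.61-fold lower in the clone under RA (log2 -1.85 ± 0.39, adjusted p = 0.0152), and the untreated difference was -0.66 ± 0.39 (adjusted p = 0.360).

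Rae1, which binds Nup98 and acts in messenger RNA export and in spindle assembly, stood at 2.36 and 2.80 on the clone RA arrays and 3.14 and 3.58 on the untreated clone arrays, against 3.96 and 3.87 with RA and 3.76 and 3.74 untreated in N18TG2. It was lower on every clone array, and 2.53-fold lower in the clone under RA (log2 -1.34 ± 0.30, adjusted p = 0.0191). Gle1, the activator of the export helicase, stood at 0.93 and 1.26 on the clone RA arrays and 1.50 and 1.40 on the untreated clone arrays, against 2.43 and 2.35 with RA and 1.67 and 1.81 untreated in N18TG2. The N18TG2 RA arrays were the highest of the 8 and the clone RA arrays the lowest, and Gle1 was 2.45-fold lower in the clone under RA (log2 -1.30 ± 0.26, adjusted p = 0.0141).

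Ddx19b, the helicase itself, which strips proteins from messenger RNA as it leaves the pore, stood at 1.96 and 1.88 on the clone RA arrays and 2.16 and 2.28 on the untreated clone arrays, against 3.15 and 2.88 with RA and 2.81 and 2.60 untreated in N18TG2. Clone arrays were lower throughout, and Ddx19b was 2.13-fold lower in the clone under RA (log2 -1.09 ± 0.26, adjusted p = 0.0255). Untreated differences of Rae1, Gle1 and Ddx19b lay between -0.49 and -0.29, with adjusted p from 0.325 to 0.575.

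The filament proteins passed no test. Ranbp2, the main protein of the cytoplasmic filaments, differed by -0.53 ± 0.33 under RA (adjusted p = 0.289), and Nup88 by 0.03 ± 0.39 (95% interval -0.90 to 0.96). Nup214, the partner of Nup88 that docks the helicase, stood at -3.30 and -3.65 on the clone RA arrays and -3.51 and -3.30 on the untreated clone arrays, against -4.30 and -3.74 with RA and -4.18 and -3.70 untreated in N18TG2. The 4 clone values all lay above the N18TG2 values, the nearest being -3.65 and -3.70. The difference under RA was 0.54 ± 0.33 (adjusted p = 0.283). The Nup214 probe was the dimmest of the 30 used. On untreated N18TG2 array 1 its -4.18 lay near that array's lowest level above background, -4.61. Calls under RA were lost for Aaas without N18TG2 RA array 2 (adjusted p = 0.0504), for Gle1 without clone RA array 1 (0.0675), for Rae1 without clone RA array 1 or either N18TG2 RA array (up to 0.0845), and for Ddx19b in 5 of 8 such fits (either clone array of either treatment, or N18TG2 RA array 1; up to 0.0814).

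**Figure D2:**
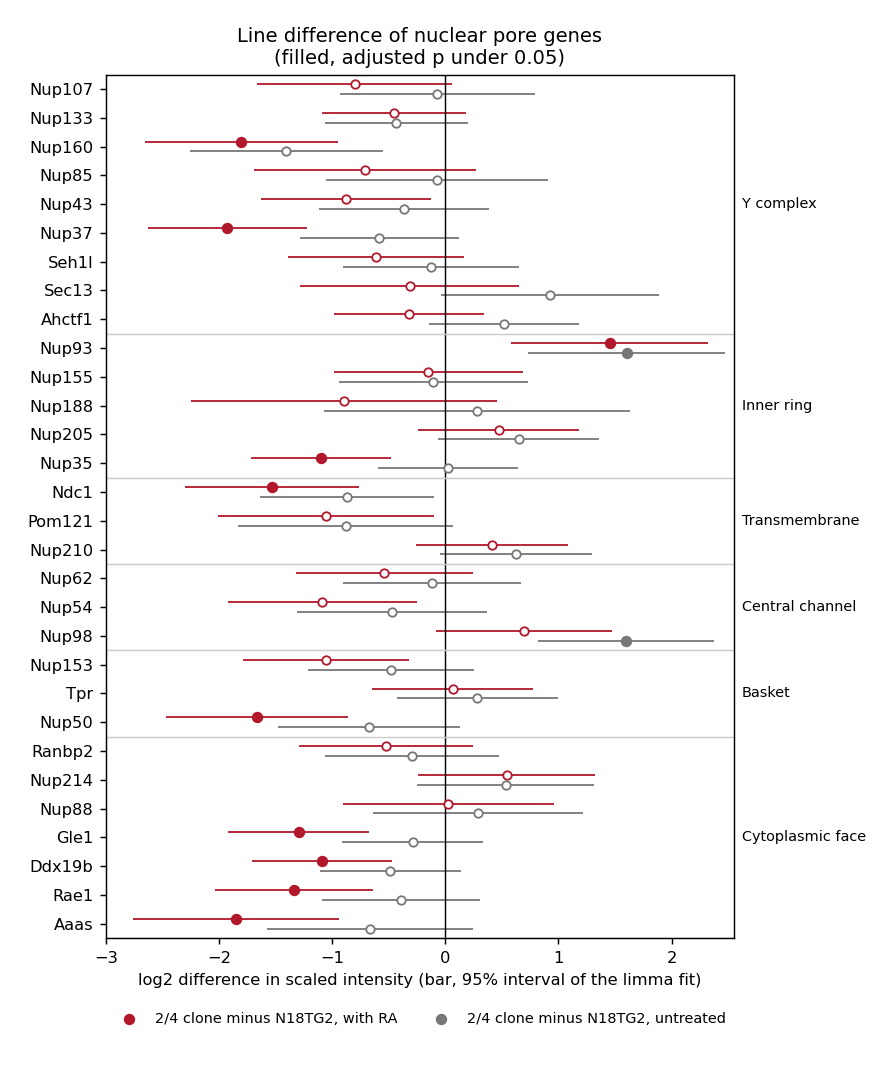
Log2 difference of the clone minus N18TG2 for each of the 30 genes, under RA (red) and untreated (grey), with 95% intervals of the limma fit and filled points where the adjusted p was under 0.05. Most red points lie left of 0 and left of their grey partner, with Nup93 to the right in both.

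**Figure D3:**
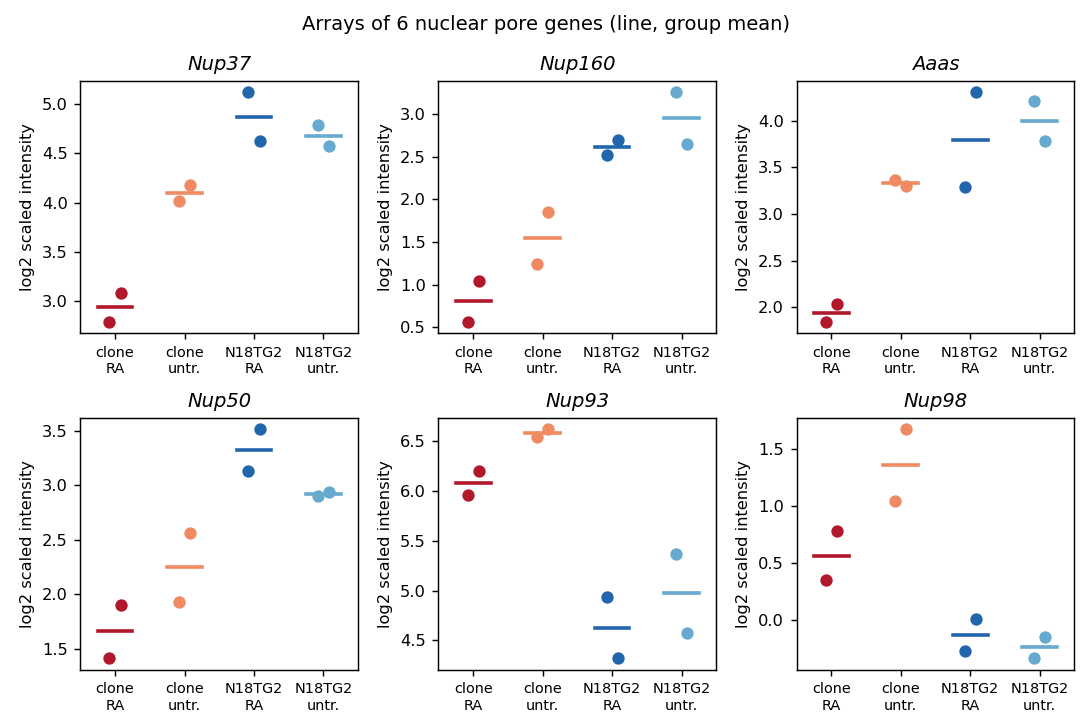
Log2 scaled intensity of 6 nuclear pore genes on each of the 8 arrays (points) with the mean of each group of 2 (line), ordered as clone with RA, clone untreated, N18TG2 with RA and N18TG2 untreated. Nup37, Nup160 and Nup50 are lower and Nup93 and Nup98 higher on all 4 clone arrays, and Aaas is low on the 2 clone RA arrays.

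Averaged over both treatments, 10 pore genes were lower in the clone than in N18TG2, against 11.6% lower among all features, and 2 were higher, against 16.1%. The 10 lower genes, 33.3% of the set, were Nup37, Nup50, Nup153, Nup160, Ndc1, Pom121, Rae1, Aaas, Gle1 and Ddx19b, and the higher ones Nup93 and Nup98. The average log2 differences furthest from 0 were -1.61 ± 0.25 for Nup160 (adjusted p = 0.00414) and 1.53 ± 0.26 for Nup93 (adjusted p = 0.00553), followed by -1.26 ± 0.27 for Aaas (0.0147), -1.26 ± 0.21 for Nup37 (0.00510) and -1.20 ± 0.23 for Ndc1 (0.00913). Nup50 averaged -1.17 ± 0.24 (0.0121) and Nup98 1.15 ± 0.23 (0.0113), while Rae1, Gle1 and Ddx19b lay between -0.86 and -0.79 (0.0197 to 0.0223). Nup153 (-0.77, adjusted p = 0.0400) and Pom121 (-0.97, adjusted p = 0.0438) passed on average but not under RA. Of the 9 genes lower in the clone under RA, 8 were among these 10 and Nup35 was not, but both comparisons use the RA arrays.

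All 4 clone arrays lay below all 4 N18TG2 arrays for 10 of the 30 genes, against 10.1% of all features, and above them for 3 (Nup93, Nup98 and Nup214), against 15.1%. With the arrays split by RA in place of line, none of the 30 genes was separated in either direction, against 3.62% of features higher and 3.44% lower. Slide row cancels in this average. Within row 1, where the untreated clone stood beside N18TG2 with RA, 2 genes were called, Nup93 (log2 1.95) and Nup98 (1.49), both higher. That is 6.67% higher against 10.1% of all features, and 0% lower against 7.11%. Within row 2, where the clone with RA stood beside untreated N18TG2, 8 were called, all lower, which is 26.7% lower against 9.93% of all features, and 26.7% against 23.4% over both directions. Nup160, Nup37 and Ndc1 differed by -1.06, -0.77 and -0.56 within row 1 and by -2.15, -1.74 and -1.84 within row 2. Column parity goes with line in both rows, and the pair cannot be told apart. The count of 12 became 6 without untreated clone array 1 or untreated N18TG2 array 1, and to 7 without untreated clone array 2 or untreated N18TG2 array 2. Without either array 1, 20% of the pore genes were called in either direction, close to the 17.9% and 18.5% of all features, and 13.3% were lower, against 7.08% and 7.17%. Without either array 2, 23.3% were called, against 17.1% and 19.4%. Nup37, Nup160, Nup50, Ndc1, Nup93 and Nup98 were called in all 8 fits that left out 1 array.

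Between RA and untreated arrays, no pore gene passed the threshold in either line, and in the clone nearly all differences had 1 sign in the scaling used. Serum may go with RA, and slide row goes with it within each line, so these cannot be told apart from RA. In the clone, RA against untreated gave 0 calls, against 4.63% of all features. Differences were negative for 29 of 30 genes, against 49.1% of all features, with a median of -0.50 (0.02 over all features). At an unadjusted p under 0.05 stood 8 genes, but the share of all features at that cutoff was not counted, here or below. Among the features above background on all arrays, 58.5% were negative, with a median of -0.13. Quantile normalization, which sets all arrays to 1 distribution, gave 24 of 30 negative and a median of -0.31, against -0.14 over all features. Aaas had the lowest value, -1.39 ± 0.39 (adjusted p = 0.0940), with 1.85 and 2.04 on the RA arrays against 3.36 and 3.30 untreated, without overlap. Nup37 followed at -1.15 ± 0.30 (adjusted p = 0.0802), Nup107, a core Y complex subunit, at -0.98 ± 0.36 (adjusted p = 0.182) and Ndc1 at -0.97 ± 0.33 (adjusted p = 0.144). Nup155 was the single positive value, 0.19 ± 0.35. Aaas and Nup37 were called, and no other pore gene, when limma's variance prior was trended and robust or when only features above background on all arrays were tested; these 6.67% of the pore genes compare with 8.28% and 9.89% of all features called in those fits.

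In N18TG2, RA against untreated gave 0 calls, against 1.13% of all features. Differences were negative for 16 of 30 genes, against 48.5% of all features, with a median of -0.07. The 1 gene at an unadjusted p under 0.05 was Gle1. The values ran from -0.35 ± 0.35 for Nup54 to 0.81 ± 0.57 for Nup188, and the Nup188 value rests on 1 array (-0.47 and 1.02 with RA, against -0.96 and -0.12 untreated). Gle1 had 2.43 and 2.35 on the RA arrays, against 1.67 and 1.81 untreated, without overlap, a difference of 0.65 ± 0.26 (adjusted p = 0.326). Without untreated N18TG2 array 1 the median over the 30 genes was 0.13.

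The RA response of the clone minus that of N18TG2 gave 0 calls, against 0.206% of all features, with 3 genes at an unadjusted p under 0.05 (Nup37, Nup35 and Gle1). The difference between responses was negative for 29 of 30 genes, against 51.1% of all features and 56.7% of the bright ones. Its median was -0.59, against -0.02 over all features and -0.11 over the bright ones. The largest were -1.34 ± 0.42 for Nup37 (adjusted p = 0.224), -1.24 ± 0.58 for Sec13 (0.408) and -1.19 ± 0.55 for Aaas (0.399), and Nup214 was the single positive value at 0.01 ± 0.47. The line difference of a pore gene is thus not shown to depend on RA. The difference between responses also sets slide row 2 against row 1, so a dependence on RA cannot be told apart from row. Quantile normalization left 21 of 30 values negative, and without clone RA array 1 the median was -0.38. Averaged over both lines, RA against untreated gave 0 calls, against 5.83% of all features, 4 genes at an unadjusted p under 0.05 and a median of -0.23, with the lowest value for Aaas (-0.80 ± 0.27, adjusted p = 0.144). Under quantile normalization that median was -0.07, as it was over all features.

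**Figure D4:**
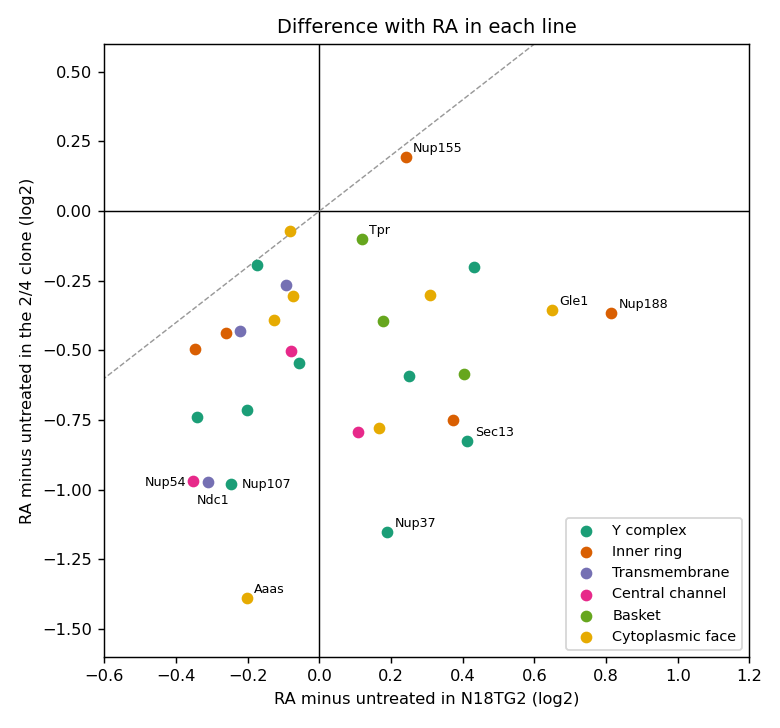
Log2 difference of RA minus untreated in N18TG2 (horizontal) and in the clone (vertical) for each of the 30 genes, coloured by place in the pore, with a dashed line where both are equal. 29 of 30 points lie below 0 on the vertical axis, and they spread to both sides of 0 on the horizontal one; no value on either axis passed the test.

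The other probes of the 8 genes with several probes were tested in a fit over all 36619 probes. Both Nup35 probes were lower in the clone under RA (log2 -1.10, adjusted p = 0.0322, and -1.16, adjusted p = 0.0422). The second Nup93 probe was higher in the clone under RA by 2.63 ± 0.48 (adjusted p = 0.0113) and had 1.46 ± 0.48 untreated (adjusted p = 0.130). The second Seh1l probe was lower in the clone under RA (-1.45 ± 0.35, adjusted p = 0.0304) where the brighter one did not pass (-0.61 ± 0.34, adjusted p = 0.250), and the second Gle1 probe had -1.18 ± 0.39 (adjusted p = 0.0755). The second Tpr probe had 0.89 ± 0.43 under RA, 0.94 ± 0.43 untreated and 0.91 ± 0.30 on average (adjusted p = 0.194, 0.256 and 0.0681), where the brighter probe had 0.06, 0.28 and 0.17. The second probes of Nup54 (-1.20 ± 0.45, adjusted p = 0.108) and Nup210 (1.04 ± 0.77, adjusted p = 0.381) passed no test under RA either. The 3 Nup188 probes disagreed, at -0.90, 0.96 and 0.20 under RA, and on average over treatments the second was higher in the clone (1.10 ± 0.25, adjusted p = 0.0201), so no direction is given for Nup188.

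Shares lower in the clone under RA are given for the transport machinery that uses the pore, against 10.2% of all features. They were 5.88% of 17 import receptors, 14.3% of 7 export receptors and 14.3% of 7 Ran cycle genes. Other backgrounds are given above. Of 17 import receptors, Ipo7 alone differed, 5.34-fold lower in the clone under RA (log2 -2.42 ± 0.31, adjusted p = 0.00222) and 3.21-fold lower untreated (-1.68 ± 0.31, adjusted p = 0.0167), with a list median of -0.17 under RA. Of 7 export receptors, Xpo4 alone differed, 7.79-fold lower in the clone under RA (-2.96 ± 0.35, adjusted p = 0.00176) and 5.92-fold lower untreated (-2.57 ± 0.35, adjusted p = 0.00559), with a list median of -0.73. In the list of 7 genes of the Ran cycle, which gives transport its direction, Rangrf, a Ran-binding factor, was lower in the clone under RA (-1.21 ± 0.34, adjusted p = 0.0439) and the median was -0.35.

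Of 13 messenger RNA export genes, 3 were lower in the clone than in N18TG2 with RA. That is 23.1%, against 10.2% of all features, with a list median of -0.62. Nxt1, the small partner of the bulk export receptor Nxf1, was 4.86-fold lower (-2.28 ± 0.29, adjusted p = 0.00222), the adaptor Alyref 3.34-fold (-1.74 ± 0.31, adjusted p = 0.00835) and the THO complex subunit Thoc6 2.85-fold (-1.51 ± 0.29, adjusted p = 0.0110). Nxf1 itself was higher in the untreated clone (1.18 ± 0.27, adjusted p = 0.0366). Thoc6 was also lower with RA than without it in the clone (-1.35 ± 0.29, adjusted p = 0.0493). Averaged over treatments, 4 of the 13 export genes were lower in the clone and 1 higher. The lower ones are 30.8%, against 11.6% of all features and 33.3% of the pore genes. Of 8 other genes linked to the pore or its checkpoint proteins, 25% were lower in the clone under RA, against 10.2% of all features. They were Tor1aip1 (-1.16 ± 0.28, adjusted p = 0.0276) and Mad1l1 (-1.03 ± 0.30, adjusted p = 0.0494). Of 5 lamina genes, none differed between lines under RA, and Lmna was higher in the untreated clone (1.27 ± 0.26, adjusted p = 0.0254) and lower with RA than without it in the clone (-1.50 ± 0.26, adjusted p = 0.0307).

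Genes of cell division moved in the same comparison as the pore genes. Of 20 mitotic genes, 15 were lower in the clone under RA and 0 higher, with a median of -1.46. Of 18 DNA replication genes, 7 were lower and 0 higher, with a median of -0.91. The lower ones are 75% and 38.9%, against 10.2% of all features. The mitotic genes with the smallest adjusted p were Tpx2 (-2.89 ± 0.30, adjusted p = 0.00104), Top2a (-2.42 ± 0.29, adjusted p = 0.00171) and Aurkb (-2.48 ± 0.32, adjusted p = 0.00225). In untreated cells 0 of 20 and 0 of 18 were called between lines, against 9.84% of all features, with medians of -0.28 and 0.01. In the clone, 9 of the 20 mitotic genes were lower with RA than untreated (median -1.42), where 2.05% of all features were lower. Of the 18 replication genes, 1 was lower in that comparison (median -0.56), and no pore gene was called. The part of the cell division genes in the pore genes' result was not tested.

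Marker lists were summed on each array. A linear sum is carried mostly by the brightest markers of a list, and single markers of some lists went both ways. Untreated, the log2 difference of the clone against N18TG2 was negative for 7 of 13 sympathoadrenal markers and positive for 6 (median -0.19). Under RA it was positive for 9 of these 13 and negative for 4 (median 1.44). There, 61.5% were called higher, against 12.9% of all features, and 15.4% lower, against 10.2%. Averaged over treatments, the difference was positive for 4 of the 7 glial markers tested and negative for 3 (median 0.15). It was positive for all 5 vessel and microglia markers tested (median 0.53). The summed scaled intensity (linear, with each array's 75th percentile at 1) of the 13 sympathoadrenal markers came to 600.3 to 679 in the clone with RA and 397 to 405 in the untreated clone, against 108 to 158 with RA and 251 to 338 untreated in N18TG2. The 10 hippocampal markers summed to 4.25 to 4.65 in the clone with RA and 2.98 to 3.49 in the untreated clone, against 2.33 to 2.75 with RA and 1.70 to 2.17 untreated in N18TG2, with 4 to 6 above background. The 8 glial markers summed to 0.728 to 0.855 in the clone and 0.962 to 1.88 in N18TG2, the 7 vessel and microglia markers to 1.75 to 2.21 and 0.824 to 1.18, and the 6 fibroblast markers to 1.08 to 1.41 and 0.579 to 1.17, with Cdh5, Cx3cr1 and Lum above background on no array. Their part in the pore genes' result was not tested.

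**Figure D5:**
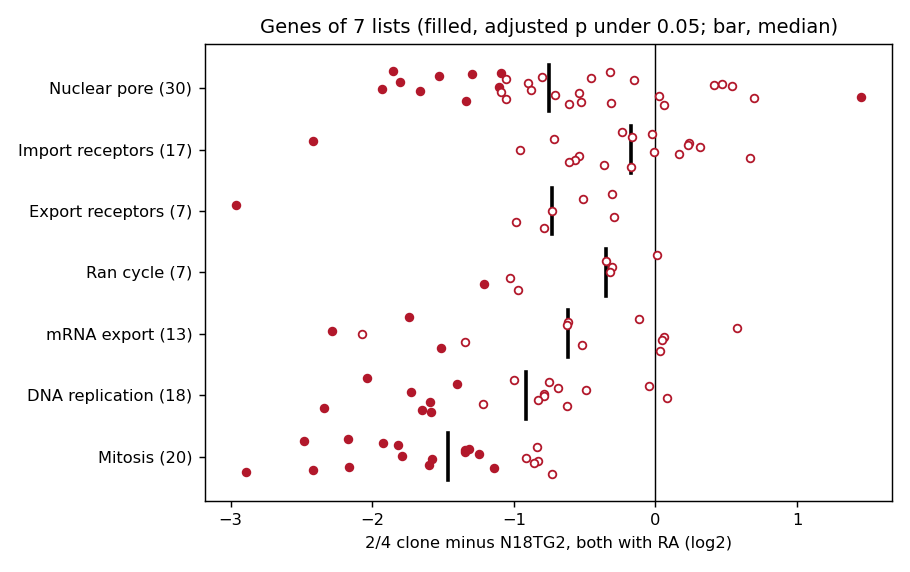
Log2 difference of the clone minus N18TG2, both with RA, for the 30 nuclear pore genes and the genes of 6 other lists (list size in brackets), with filled points where the adjusted p was under 0.05 and a bar at each median. The pore genes' median of -0.76 lies between those of the import receptors (-0.17) and the mitotic genes (-1.46).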

How the data were processed

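Total RNA of the 8 samples was labelled with Cy3 and hybridised to Agilent mouse design 028005, per the labels and file headers. The intensity values (processed signal) are the scanner software's background-corrected ones and were not scaled across arrays by the authors, per the file headers (Feature Extraction 10.7.3.1). The authors' deposited log2 values were used as an alternative. For this report, log2 intensity minus each array's 75th percentile over non-control spots was taken. Outlier spots were dropped, 36619 of 55681 probes kept (at least 2 of the 8 arrays well above background), and the brightest probe per gene used, which left 26247 features (15169 with a symbol). On every array, 0 probes were saturated in most of their spots. Groups were compared in 1 fit with limma 3.58.1 in R 4.3.3 (4 residual degrees of freedom), with Benjamini-Hochberg adjustment over all features, after the script was tested on simulated data. Columns of other samples numbered 0.

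The pore genes, the lists (import and export receptors, Ran cycle, messenger RNA export, other pore-linked, lamina, mitotic, replication, cell type markers) and the tests were chosen with earlier results of these data known. Every pore gene is accounted for; those called are named with their statistics, and where fewer than 3 were called, those with the largest differences. Of other lists, up to 3 called genes per comparison are named. Alternatives were normexp (offset 50) on the median signal, since no mean signal is in the tables, quantile normalization, the deposited table, other filters and probe summaries, a trended robust prior, only the groups compared, the left and right sides of the slide as a block, leaving out each array, and, added after the data were seen, slide rows. The number of arrays limits the precision.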

Additional observations from a re-analysis of the deposited data

How the results depend on the processing

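Pore genes called in the clone against N18TG2 under RA numbered 10, but 6 with no filter on dim probes, 2 with only the groups compared in the fit (Nup37 and Nup160) and 3 to 9 with 1 array left out, where a lone array was assumed to vary like the other groups. Untreated, 2 became 0 with no filter, 1 with the mean of a gene's probes (Nup98) and 0 to 3 with 1 array left out. On average over treatments, 12 became 7 with no filter, 6 to 13 with 1 array left out and 2 within slide row 1, an alternative chosen after the data were seen. For RA in the clone, 0 became 2 when every array had to be above background and when the variance prior was trended and robust. Of all features, 9.95%, 10.1% and 14.6% to 27.7% were called in the first 3 of these settings under RA, against 20%, 6.67% and 10% to 30% of the pore genes. Untreated, 0% of the pore genes were called with no filter, against 3.73% of all features. With the mean of a gene's probes it was 3.33%, against 9.88%. On average over treatments, 23.3% were called with no filter, against 13.1% of all features, and 6.67% within slide row 1, against 17.2%. Medians moved by more than the within-group spread of 0.194 to -0.51 under quantile normalization (clone against N18TG2 under RA) and to -0.64 within slide row 2 (average over treatments). With 1 array left out they ranged from -0.92 to -0.56 (clone against N18TG2 under RA), -0.75 to -0.38 (difference between RA responses) and -0.10 to 0.13 (RA in N18TG2), and only the upper end of each range moved by more than that spread. Under quantile normalization the medians of RA in the clone and of RA averaged over lines were -0.31 and -0.07, against -0.14 and -0.07 over all features. The cause of these shifts was not tested. The fit without the filter held more features, and the smaller fits held fewer arrays. No difference of a called pore gene changed sign under any alternative run. The median over all features in the clone against N18TG2 under RA was 0.11 in the scaling used and -0.14 under quantile normalization, so the pore genes lay below it in both. No paired analysis was possible because the labels number the samples across the series and give no replicate numbers within groups.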
